A study of Drosophila melanogaster with 2 samples.

Results

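The genes described here are Lk6, larp, Thor, S6k, Tor (listed as mTor in the annotation), Rheb and raptor, 7 of 13945 protein-coding genes. The measurements are the chromatin immunoprecipitation (ChIP-seq) peaks whose summit, the base of highest enrichment, lay inside each gene or within 5 kb of it. The genes were chosen as a set because Lk6 and larp hold some of the strongest peaks of the series, so the signals of those peaks are given as a description, with no test. They held 15 of the 4097 peaks that passed the authors' reproducibility threshold, called thresholded peaks here, and 72 of the 30000 candidate peaks in the list of both replicates pooled, which by design also includes background. A candidate, without further words, is a peak of that pooled list. Chromatin came from intact Drosophila melanogaster embryos of both sexes collected at 0 to 24 h, in 2 biological replicates of a single group. An intronic eGFP exon made the fly line produce a GFP fusion protein, which was precipitated with an antibody against GFP. The strain and fusion are named Side, whereas the insertion is said to target Sidpn, and in the annotation these names belong to different genes, a cell surface protein (sidestep) and a basic helix-loop-helix repressor. Because whole embryos of a wide age range were pooled, a peak cannot be placed in a tissue or a stage. There was no second condition, and both replicates were set against the same control, per the deposited file records.

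The TOR kinase, with its partner Raptor and the small GTPase Rheb that activates it, adjusts protein synthesis to nutrients and insulin. It phosphorylates S6 kinase (S6k), and it phosphorylates the 4E-BP protein Thor, which otherwise holds the cap-binding factor eIF4E away from the rest of the initiation machinery. Larp, an RNA-binding protein of the La-related family, is a TOR target whose mammalian counterpart binds messages that begin with a terminal oligopyrimidine tract. Lk6 is the fly counterpart of the mammalian MNK kinases, which phosphorylate eIF4E. In flies Thor is also a well-known target of the transcription factor FOXO, which insulin signalling restrains.

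The sequences at the summits that the description turns on are printed here because the strongest of them are the reason the genes stand out. They are from the plus strand of RefSeq Release 6 (dm6), 5′ to 3′, with 100 bases on each side of the summit where the window was free of annotated UTR, and otherwise a short stretch around a motif. Capitals mark every match, on either strand, to the 10 motifs named further on. Lk6 and larp lie on the minus strand and Thor and Tor on the plus strand.
Lk6 intron, chr3R:11760962-11761162: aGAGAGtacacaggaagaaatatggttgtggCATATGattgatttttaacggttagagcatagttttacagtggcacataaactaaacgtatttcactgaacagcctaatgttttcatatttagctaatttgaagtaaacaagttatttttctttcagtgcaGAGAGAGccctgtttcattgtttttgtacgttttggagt
larp upstream of the RA and RE start sites, chr3R:28326506-28326706: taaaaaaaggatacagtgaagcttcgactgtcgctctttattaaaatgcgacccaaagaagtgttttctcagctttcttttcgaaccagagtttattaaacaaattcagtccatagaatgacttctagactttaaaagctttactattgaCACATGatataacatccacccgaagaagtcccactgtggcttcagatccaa
larp upstream of the RG and RH start site, chr3R:28335797-28335997: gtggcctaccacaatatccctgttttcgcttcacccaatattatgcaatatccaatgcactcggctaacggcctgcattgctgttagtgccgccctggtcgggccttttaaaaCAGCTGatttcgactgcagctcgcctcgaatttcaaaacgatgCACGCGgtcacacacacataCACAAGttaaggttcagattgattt
larp in the 5' UTR of RF, chr3R:28331108-28331136: acCACGTGgtgagttcggtaaCACGTGcc
Thor upstream of its start sites, chr2L:3478401-3478410: ggTATAAAta
Tor upstream of its start site, chr2L:13004119-13004319: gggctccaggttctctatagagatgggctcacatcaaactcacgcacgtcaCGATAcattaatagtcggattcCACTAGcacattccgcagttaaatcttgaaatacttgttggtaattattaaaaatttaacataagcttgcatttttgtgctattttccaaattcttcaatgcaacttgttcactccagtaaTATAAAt
The windows under the strong Lk6 and larp summits were AT-rich, with 33.8% and 36.8% G and C, and neither held CACGTG or CACGCG. The larp stretch in the RF 5' UTR is shown for its 2 copies of CACGTG, and the Thor stretch for its TATAAA match, which lay before the outer of the gene's 2 start sites. The larp sequence upstream of RG and RH is centred on the weaker pooled summit there (rank 4082). The stronger pooled summit (rank 904) and the matching summits of both replicates lie outside it. The Tor sequence lies between Tor and Vha68-1.

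Lk6 (FBgn0017581, chr3R:11750931-11764457, minus strand) had the strongest peak among the 7 genes. The peak at chr3R:11760843-11761277 had its summit in an intron, 983 bp upstream of the inner start site, that of transcript RB. Its signal, the enrichment value of the authors' peak caller, whose scale is not stated, was 931.7 in replicate 1 and 669.3 in replicate 2, and 1597 in the pooled list. In rank it was 4th in replicate 1 and 5th in both replicate 2 and the pooled list. Among the 1786 thresholded peaks farther than 500 bp from any annotated start site it was 3rd, and it was also 3rd among the 1245 of these in introns.

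The outer Lk6 start site, that of transcript RA, had a far smaller thresholded peak. This peak, at chr3R:11764190-11764599, had its summit in the 5' UTR, 62 bp downstream of the start site, with a signal of 95.68 in replicate 1 (rank 1128), 71.82 in replicate 2 (rank 1436) and 165.1 in the pooled list (rank 1227). The intronic peak exceeded it 9.74-fold in replicate 1, 9.32-fold in replicate 2 and 9.67-fold in the pooled list, and it was the next strongest at the gene in each. No summit of the pooled list lay within 500 bp of the RB start site, and replicate 1 alone had a weak peak there, 334 bp upstream, with a signal of 20.02 (rank 14835). The 2 promoters give proteins of 1142 and 1090 residues, which begin at different start codons. The other 13 of 15 pooled candidates at Lk6 stayed under the threshold, and the gene had 13 peaks in replicate 1 and 16 in replicate 2.

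larp (FBgn0261618, chr3R:28318162-28336440, minus strand) had 7 thresholded peaks, all inside the gene. Over all protein-coding genes the median was 0 and the mean 0.787, and 39 genes (0.28%) had 7 or more. Per length, larp and its flanks held 2.48 thresholded peaks per 10 kb against 0.466 over the windows of all protein-coding genes. For candidates the values were 7.07 against 3.03 per 10 kb.

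The strongest larp peak lay at an inner promoter. It spanned chr3R:28326386-28326805, with its summit in an intron 342 bp upstream of the innermost group of start sites, those of RA and RE. Its signal was 642.4 in replicate 1 (rank 12), 464.1 in replicate 2 (rank 16) and 1115 in the pooled list (rank 12). Among the 2311 thresholded peaks within 500 bp of a start site it was 7th. It exceeded the next strongest larp peak 4.68-fold in replicate 1, 5.97-fold in replicate 2 and 5.66-fold in the pooled list.

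The other 4 larp promoters ran from a moderate peak to none. Upstream of the RG and RH start site, a narrow peak 154 bp away (chr3R:28335613-28335751) had a signal of 137.3 in replicate 1, 61.9 in replicate 2 and 197.1 in the pooled list (rank 904), and a neighbour 356 bp away had a pooled signal of 81.82 (rank 4082), just inside the threshold. These 2 pooled peaks overlap each other and match the same single peak in each replicate list, so they may be counted as a single site. At the RF start site a peak 179 bp downstream (chr3R:28330834-28331243), the site of the 2 CACGTG copies printed above, had 36.89 in replicate 1, 50.01 in replicate 2 and 85.95 in the pooled list (rank 3800). The outermost start site, RD, had a candidate under the threshold, with 60.07 in replicate 1, 17.37 in replicate 2 and 71 in the pooled list (rank 5066). The RB start site had no pooled candidate within 500 bp, and replicate 1 alone had a weak peak 479 bp downstream of it, with a signal of 16.49 (rank 20157).

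The remaining 3 thresholded larp peaks were in introns, more than 500 bp from any start site. A peak 1105 bp upstream of the RB start site, 102 bp wide, had 48.75 in replicate 1, 77.76 in replicate 2 and 124.4 in the pooled list (rank 2027). Its neighbour 739 bp upstream of that start site had 47.29 in replicate 1 and 93.22 in the pooled list (rank 3321), and no peak of replicate 2 overlapped it. The peak 1270 bp upstream of the RF start site had 57.56 in replicate 1, 29.43 in replicate 2 and 83.94 in the pooled list (rank 3934). RD, RG and RH encode a protein of 1673 residues, RF 1409, and RB, RA and RE 965, so the strongest peak lay next to a promoter of the shortest form.

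**Figure D1:**
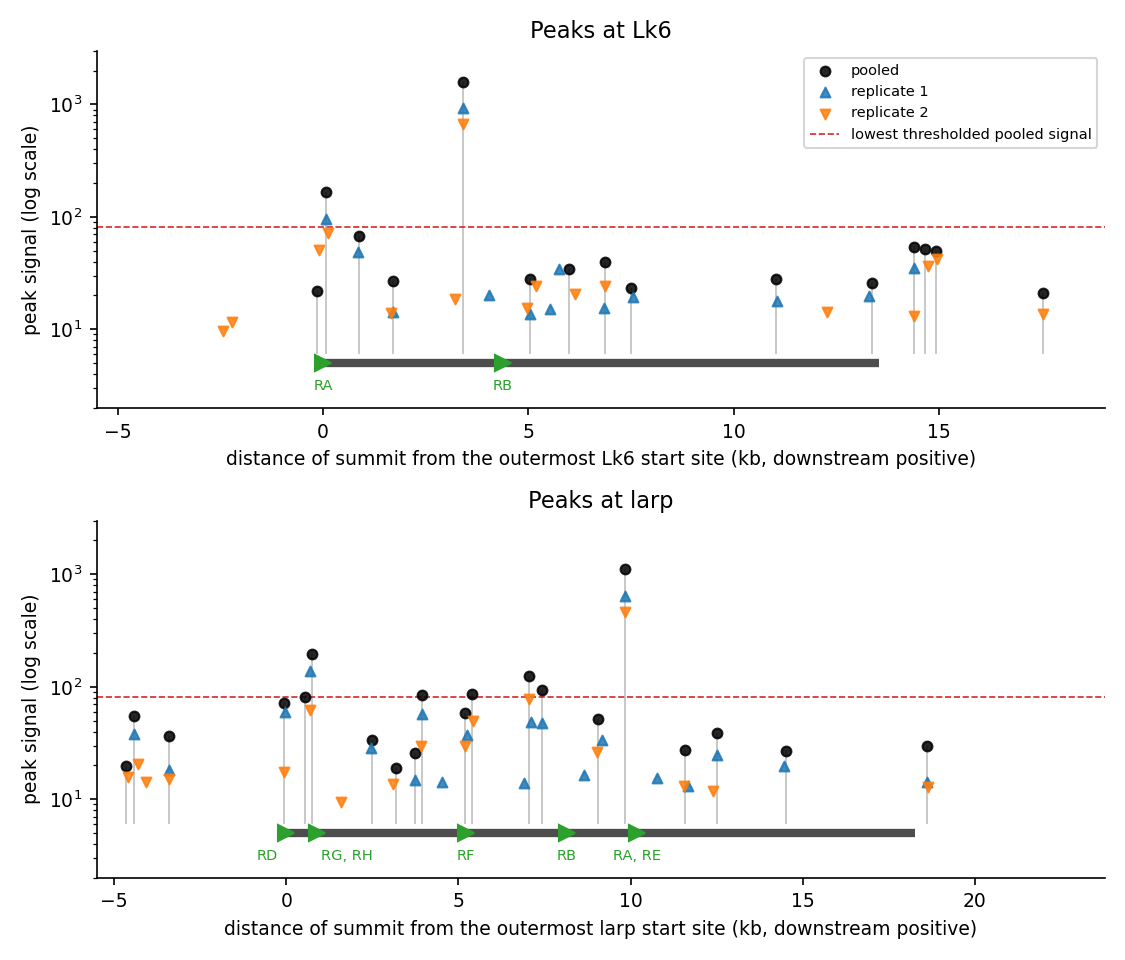
Signal of every peak at Lk6 (top) and larp (bottom) on a log axis against the distance of its summit from the outermost start site in kb, with the gene as a grey bar and its start sites as green arrows. Pooled signals are black, replicate 1 blue and replicate 2 orange, and the dashed line is the lowest thresholded pooled signal (81.5); a single tall peak stands inside each gene, at 1597 for Lk6 and 1115 for larp.

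A strongest peak at an inner promoter, as at larp, was common among genes with several promoters. Of the 1088 protein-coding genes with candidates from different peaks at 2 or more of their promoters, 517 (47.5%) had their strongest at an inner promoter. Lk6 is not among the 1088, because its RB start site had no pooled candidate within 500 bp.

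Thor (FBgn0261560, chr2L:3478434-3479612, plus strand), the 4E-BP gene, had a thresholded peak over its start sites. Its summit was in the 5' UTR, between the start sites of its transcripts and 35 bp upstream of the inner one, with 129.5 in replicate 1 (rank 634), 130.8 in replicate 2 (rank 455) and 248.4 in the pooled list (rank 554). These replicate signals were the closest to equal among the 15 thresholded peaks, and the peak was 353rd of 2311 at start sites. A second thresholded peak 2380 bp upstream had 48.91, 41.42 and 92.03 in replicate 1, replicate 2 and the pooled list, and its summit lay 289 bp upstream of the start site of the noncoding RNA gene lncRNA:CR43928.

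S6k (FBgn0283472, chr3L:5797549-5810931, minus strand), the kinase that TOR activates, lay at the threshold itself. Its promoter candidate, 19 bp upstream of the start site, had 35.33 in replicate 1 (rank 6086), 41.23 in replicate 2 (rank 3891) and 80.67 in the pooled list (rank 4160), just outside the lowest thresholded signal of 81.5. The start site of kri lies within 500 bp of the same summit. An intronic peak 2590 bp downstream of the S6k start site passed, with 47.56 in replicate 1, 37.18 in replicate 2 and 87.43 in the pooled list (rank 3696). The pooled signals of these 2 peaks differed 1.08-fold, and their order was the opposite in replicate 2.

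Tor (mTor, FBgn0021796, chr2L:13004480-13013197, plus strand) had 1 thresholded peak, in the space between it and Vha68-1, a gene of the vacuolar proton pump. The summit lay 261 bp upstream of the Tor start site and 112 bp upstream of that of Vha68-1, so these data do not tell the promoters apart. The signal was 68.74 in replicate 1 (rank 2043), 55.72 in replicate 2 (rank 2366) and 126.5 in the pooled list (rank 1976). A further weak peak, in replicate 1 alone, had its summit 48 bp upstream of the Tor start site, with a signal of 21.16 (rank 13608). Tor had 4 pooled candidates in and around it, none with its summit inside the gene.

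Neither of TOR's partners had a thresholded peak at its own promoter. raptor (FBgn0029840, chrX:6082634-6090201, minus strand) had a promoter candidate of 23.11 in replicate 1, 17.01 in replicate 2 and 43.21 in the pooled list (rank 10096). The thresholded peak counted for raptor had 57.26, 35.45 and 89.15 in replicate 1, replicate 2 and the pooled list (rank 3576). Its summit lay 1051 bp upstream of the raptor start site and 47 bp from that of the neighbouring gene Nep1. The start site of Mipp2 also lies within 500 bp of that summit. Rheb (FBgn0041191, chr3R:5568921-5570491, plus strand) had no pooled candidate within 500 bp of its start site, and the nearest in the pooled list, 691 bp upstream, had a signal of 53.08 (rank 7642). Replicate 2 alone had a weak peak 147 bp upstream of the start site, with a signal of 15.85 (rank 15846). Its thresholded peak, with 113.6 in replicate 1, 56.03 in replicate 2 and 169.6 in the pooled list (rank 1187), lay 3212 bp upstream, in an intron of CG12746 and 543 bp from the start site of that gene.

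**Figure D2:**
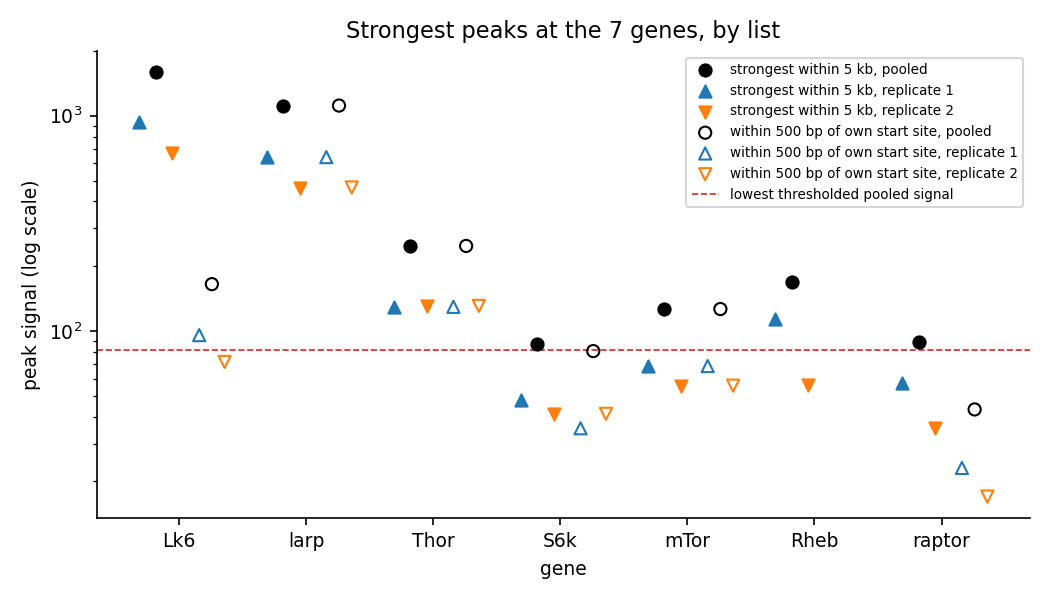
Peak signal on a log axis for each of the 7 genes in the pooled list (circles), replicate 1 (upward triangles) and replicate 2 (downward triangles). Filled symbols are the strongest peak in or within 5 kb of the gene in each list, open symbols the strongest pooled peak within 500 bp of an own start site with its matched replicate peaks, and the dashed line is the lowest thresholded pooled signal (81.5); Rheb has no open symbols, and the open pooled circles of S6k (80.67) and raptor (43.21) are under the line.

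In order of their strongest pooled signal the genes ran Lk6, larp, Thor, Rheb, Tor, raptor and S6k. Lk6, larp and Thor stood in that order in both replicates. In replicate 2 Tor (55.72) and Rheb (56.03) were nearly level and S6k (41.23) was above raptor (35.45), so the order of the last 4 genes was not the same in the replicates. Scored by their own promoters, the order was larp, Thor, Lk6, Tor, S6k and raptor, with Rheb last for want of a pooled candidate.

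All 7 genes had a thresholded summit in or within 5 kb of them, as had 46.5% of all protein-coding genes; the genes were partly chosen by these peaks, so nothing is read from that count. Of the 7 genes, 6 had a candidate within 500 bp of a start site and 4 a thresholded peak there (Lk6, larp, Thor and Tor). Among all protein-coding genes with such a candidate the share with a thresholded peak was 35.2%, and among all protein-coding genes it was 19.6%. Counted by promoter, 9 of the 12 promoters of the 7 genes had a candidate and 6 a thresholded peak, where 32.2% of all promoters with a candidate had a thresholded peak. Of the 15 thresholded peaks, 11 had their summit inside the gene and 7 within 500 bp of an own start site. The 57 candidates at the 7 genes that missed the threshold had pooled signals from 18.88 to 80.67 with a median of 33.91. The median over the whole pooled list was 32.2, but that list includes the thresholded peaks, so the medians are not of like sets. Replicate 1 had an overlapping peak at 46 of the 57 and replicate 2 at 43.

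The replicates differed in overall signal and in several of these peaks. Over all thresholded peaks matched in both replicates, the log2 ratio of replicate 1 to replicate 2 had a median of 0.25 and an SD of 0.63 (4078 of 4097 peaks), and the 14 matched peaks at the 7 genes had a median of 0.44, from -0.67 to 1.15. The strongest Lk6 and larp peaks had nearly the same ratio, 0.48 and 0.47 on the log2 scale. Replicate 1 was higher at 11 of the 14 and lower at 3, namely Thor's promoter peak and a pair of larp peaks. The overlapping larp pair upstream of RG and RH enters this count with 1 replicate ratio for both. The thresholded larp peak at RF, among the lower, shares its replicate 1 match with a candidate under the threshold. The widest gaps from the median of the series were at larp, where the peak 1105 bp upstream of the RB start site had 0.627 times the signal in replicate 1 (-1.45 SD) and the pair upstream of RG and RH 2.22 times (1.42 SD). Rheb's thresholded peak followed, with 2.03 times the signal in replicate 1 (1.22 SD). Of the 15 peaks, 10 overlapped a peak among the 4097 strongest of each replicate (66.7%), against 2968 of 4097 thresholded peaks (72.4%). The other 5 were 3 larp peaks of pooled rank 3321, 3800 and 3934, the intronic S6k peak and the peak at Nep1 and Mipp2 near raptor.

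**Figure D3:**
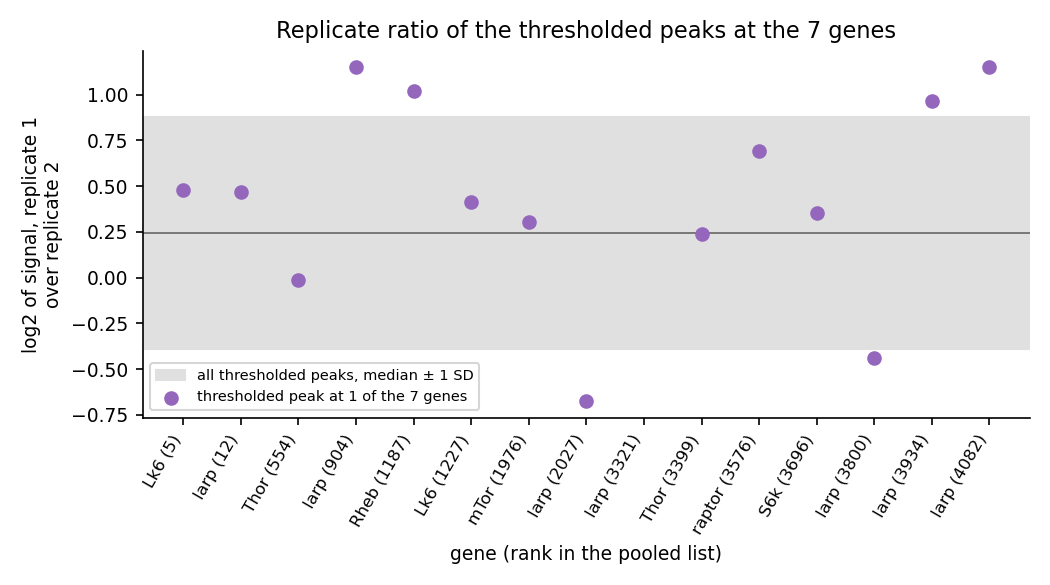
Log2 ratio of the signal in replicate 1 to that in replicate 2 for the thresholded peaks at the 7 genes, in order of their rank in the pooled list, given in parentheses. The line is the median of all thresholded peaks (0.25) and the grey band spans 1 SD (0.63) on each side; the strong Lk6 and larp peaks lie near the middle of the band, and the larp peak of rank 3321 has no point because replicate 2 had no peak there.

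A list of 79 genes of TOR signalling and cap-dependent translation, which includes the 7, gives the setting. Of the 79, 63 had a promoter candidate and 28 a thresholded promoter peak (44.4%). Without the 7 genes it was 24 of 57 (42.1%), with a median highest promoter signal of 68.3, beside 35.2% and a median of 60.1 for all protein-coding genes with a candidate. The excess over the background was not tested. Among the 28, 26 overlapped one of the 4097 strongest peaks in each replicate. Over all thresholded peaks, which also lie away from promoters, the share was 72.4%. No like count was made for the promoter peaks of all protein-coding genes, so nothing is read from the 26.

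Of 15 genes with a candidate that pass insulin and energy status to TOR, 10 had a thresholded promoter peak (66.7%). They included Pi3K21B, the adaptor subunit of the insulin-activated lipid kinase (pooled signal 261.4), scyl, an inhibitor of TOR induced by stress (217.7), melt, which modulates TOR and FOXO activity (213.2), and the insulin receptor gene InR. InR was uneven, with 129.5 in replicate 1 and 51.85 in replicate 2 (179.7 in the pooled list). The genes with a candidate that did not pass were foxo (58.02), chico (43.16), Akt (34.14), AMPKalpha (25.59) and Tsc1 (22.42). Tsc1 is a subunit of the complex that holds Rheb inactive. Its partner gig had no candidate, and neither had Pi3K92E or Rheb. The share over all protein-coding genes with a candidate was 35.2%, and the difference from it was not tested.

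Of 17 listed amino acid sensing genes 15 had a candidate, and 3 of these passed (20%). The share over all protein-coding genes with a candidate was 35.2%, and the difference was not tested. Sesn, the sestrin that signals a lack of leucine in mammals, had 325.5 in replicate 1, 299.6 in replicate 2 and 617.8 in the pooled list (rank 69), the highest on the list after larp, with the start site of CG46429 in the same window. Lamtor3, a scaffold that holds TOR at the lysosome, followed with 173.8 at a window shared with fws, and Sec13 had 94.75 at a window shared with ATPsynCF6. The Rag GTPases, which recruit TOR to the lysosome, were low, with RagC-D at 36.31 and RagA-B at 20.31.

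Among the subunits of the TOR complexes, Tor and Sin1 passed, 2 of 6 with a candidate (33.3%, beside 35.2% of all protein-coding genes with a candidate). Sin1, a subunit of the second TOR complex, had 85.56 (rank 3819) at a window shared with CG17385. PRAS40, a TOR inhibitor, had 76.93, Lst8 had 29.79 and rictor 21.28. The 2 genes that passed had a pooled signal below the median thresholded signal of 123.6 or close to it.

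Of 15 listed cap-binding and initiation genes 9 had a candidate, and 4 of these passed (44.4%). The share over all protein-coding genes with a candidate was 35.2%, and the difference was not tested. After Thor came eIF4EHP, a cap-binding repressor, with 69.46 in replicate 1, 95.54 in replicate 2 and 160.2 in the pooled list, then the helicase gene eIF4A with 106.3. eIF4G2 had 55.41 in replicate 1, 20.44 in replicate 2 (rank 11232) and 96.46 in the pooled list. Its replicate 2 value is that of the overlapping peak with the nearest summit. All 4 genes that passed overlapped one of the strongest peaks of each replicate, by the cut used above for all listed genes. A stronger replicate 2 peak therefore also overlapped the eIF4G2 peak, and no difference between the replicates is read from these values. The eIF4EHP and eIF4G2 summits had the start sites of CG18428 and CG33111 within 500 bp. The gene of the cap-binding protein itself, eIF4E1, which Thor and Lk6 act on, had a candidate of 72.3 (rank 4929), and that of its scaffold eIF4G1 had 25.75. In the La and LARP family all 4 listed genes had a candidate and 3 passed. Besides larp these were Larp7, at 142.8, and La, at 106.3, and Larp4B had 48.64. Each of the Larp7 and La summits had another gene's start site within 500 bp, mxc and RtGEF.

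In the group of Lk6 and the kinases upstream of it, Lk6 was the only gene of 4 with a candidate that passed. No upstream kinase passed, and p38a, at 80.32 (rank 4201), was just outside. Of 13 listed genes downstream of TOR 10 had a candidate, and 5 of these passed (50%). For both groups the share over all protein-coding genes with a candidate was 35.2%, and no difference from it was tested. REPTOR, a transcription factor that TOR keeps out of the nucleus, had 165.2 in replicate 1, 266.3 in replicate 2 and 428.7 in the pooled list (rank 161). SREBP, the regulator of lipid synthesis, had 225.7, the autophagy genes Atg17 and Atg1 had 143 and 110.6, and the ribosomal protein gene RpS6, whose product S6 kinase phosphorylates, had 96.17. The Atg17 summit had the start site of Xe7 within 500 bp, and the RpS6 summit that of a snoRNA gene.

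**Figure D4:**
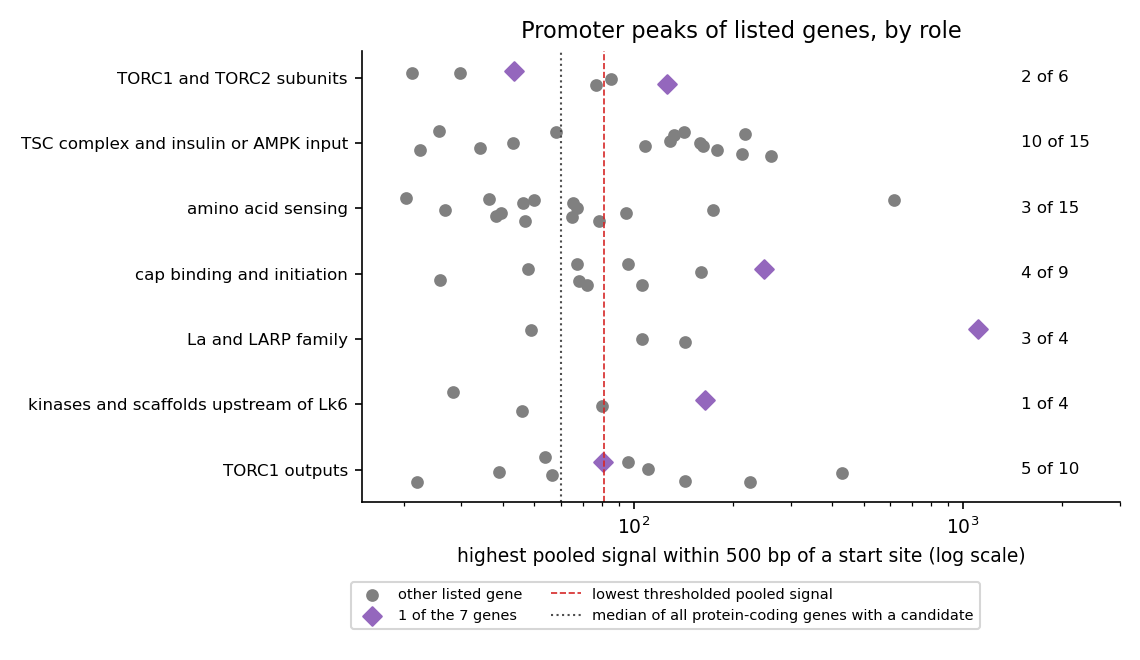
Highest pooled signal within 500 bp of a start site, on a log axis, for the listed genes with a candidate, by role. Diamonds are the 7 genes and circles the others, the dashed line is the lowest thresholded signal (81.5), the dotted line the median of all protein-coding genes with a candidate (60.1), and the counts at the right give thresholded genes of genes with a candidate, from 3 of 15 for amino acid sensing to 10 of 15 for insulin and energy input.

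Motif letters were counted within 100 bp of each summit, on both strands. Sidpn belongs to the Hairy and Enhancer of split type of repressors, which typically bind E-box and N-box letters, the first 3 motifs given here. CACGTG was found at 1 of the 15 thresholded peaks (2.71% of all thresholded peaks), the larp RF peak, and CACGCG at 2, again that larp peak and the larp peak of rank 4082 (4.81%). CACNAG was found at 6 (22.9%), and the general E-box CANNTG, which also takes in CACGTG and CAGCTG, at 9 (62.4%). CAGCTG itself was found at 2 (11%).

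Promoter motifs were read the same way. CGATA, the core of the DREF element, was found at 6 of 15 (32.4% of all thresholded peaks), the full TATCGATA at 0 (4.61%), and the Motif 1 sequence GGTCACACT at 0 (2.47%). TATAAA was found at 6 (26.5%), with Thor and Tor among them. The Thor match began at chr2L:3478403, close to the outer Thor start site at 3478434. The Tor match began at chr2L:13004313, farther from the Tor start site at 13004480. GAGAG, the core of the GAGA factor site, was found at 2 (27.3%), the Lk6 intronic peak with 3 matches, of which 2 overlap, and the S6k intronic peak. The strong larp peak held a single CANNTG, 50 bp from its summit, and the smaller Lk6 peak at the RA start site held no match to any of the 10. In 201-base windows the 15 summits had a median of 37.3% G and C, against 38.3% for all thresholded peaks and 42.8% for all candidates.

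The genes most like larp and Lk6 in promoter signal were taken as those nearest in the plane of log2 replicate 1 and log2 replicate 2 signal, among 6373 protein-coding genes with a promoter peak matched in both replicates. For larp (642.4 and 464.1) these were CenG1A and mRpS23, which share a peak of 615.5 in replicate 1 and 437.2 in replicate 2 (pooled rank 14), and mRpL41, with 561.2 and 474.7 (pooled rank 16). For the RA promoter of Lk6 (95.68 and 71.82) these were Sptr, with 94.26 and 71.79, and CG32590 and Flo2, which share a peak of 94.47 and 72.61. With 2 replicates as the axes the likeness is one of level.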

How the data were processed

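ChIP-seq peak lists of 2 biological replicates of 1 group were analysed. The authors deposited, per the file records, candidate lists of 30000 peaks for replicate 1, replicate 2 and both pooled, and an optimal list of 4097 peaks past an irreproducible discovery rate threshold, which equals the 4097 highest pooled signals (13.7%). The deposited unit is the signal of the authors' caller, on a scale that is not stated (caller, aligner and threshold: not given in the sources used here). Read depth is unknown, so no interval is given. The median deposited signal was 19.88 in replicate 1 and 16.51 in replicate 2.

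From these lists, peaks were assigned by summit to genes of Ensembl release 115 (annotation 6.54), with start sites within 100 bp of each other taken as 1 promoter; sequence came from RefSeq Release 6. dm6 coordinates are 1-based. Tor and Flcn were matched as mTor and BHD. A replicate peak was matched to a pooled peak by an overlap of at least 1 bp, taking the nearest summit. Fragments were 200 to 800 bp, per the labels. The method was tested on simulated data (Python 3.11.15, pandas 2.3.3). The members, the gene list and the motifs were chosen with earlier results of these data known, and no test was made. Named genes were the 7, listed genes with a thresholded promoter peak, up to 4 of highest signal per role plus lower ones chosen after their values were seen, genes sharing a named peak, and the 3 nearest in signal. Protein sequences were not used here. Alternatives were wider and narrower windows, a stricter list, each replicate alone, other overlap rules and motif windows.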

Additional observations from a re-analysis of the deposited data

How the results depend on the processing

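No paired analysis was possible because there was 1 group. Of 60 recomputed values, 33 stayed close to the value reported. For counts, close meant within 1.5 times. For the highest signals it meant a difference from the pooled value below the SD of the 2 replicate values. All of the highest signals moved under that rule. The count of thresholded peaks at the 7 genes ran from 11 to 19 with other windows or overlap rules, and was 14 without replicate 1 and 16 without replicate 2. In the 1000 strongest peaks it was 4, genes of the 7 with a promoter peak were 2 (larp and Thor), listed genes 8 and all protein-coding genes 770, by construction of the shorter list. The 7 genes with a promoter peak ranged from 4 to 5 without each replicate in turn, S6k joining without replicate 1. Within 200 bp Tor dropped out, and with the outermost start site alone larp did. At 200 bp larp stayed through weaker peaks, since its strongest peak lay 342 bp from the RA and RE start sites. At 1000 bp the strongest Lk6 peak, 983 bp from the RB start site, counts as a promoter peak. The placing of these strongest peaks thus rests on the 500 bp cut. Listed genes ranged from 30 to 33 and all protein-coding genes from 2658 to 2758 without each replicate.

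The highest signal without each replicate in turn ran from 669.3 to 931.7 at Lk6, 464.1 to 642.4 at larp, 129.5 to 130.8 at Thor, 41.23 to 47.56 at S6k, 55.72 to 68.74 at Tor, 56.03 to 113.6 at Rheb and 35.45 to 57.26 at raptor; the median signal was 19.88 and 16.51 in the replicate lists and 32.2 in the pooled list, so these levels do not compare across lists. Peaks among the strongest in both replicates were 8 of 15 with summits within 100 bp. Motif counts moved most: within 50 bp CACGTG was at 0 peaks, CACGCG at 1, CACNAG at 3, CGATA at 3, GAGAG at 0 and TATAAA at 1, and over whole peaks CACGTG was at 2, CACGCG at 4 and GAGAG at 8; a shorter or longer window holds fewer or more letters. With 2 replicates, no read totals and 1 control, the precision of a single peak's signal is unknown.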
